A study of Mus musculus with 24 samples.

Results

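Liver RNA of hypothyroid mice carrying the GS mutation of the thyroid hormone receptor TRβ was compared with that of hypothyroid wild-type (WT) mice, in 3 samples each. None had received thyroid hormone. These 6 arrays, chosen by the genotype and treatment in their titles, are 3 labelled GS and PBS and 3 labelled WT and PBS, of 24 arrays in all. The GS genotype carries the changes E125G and G126S, counted in residues of TRβ, which lie in the part of the receptor that binds DNA. All the mice compared were males of 8 to 9 weeks on a C57BL/6J background, WT and GS alike. They had been made hypothyroid for 3 weeks by a diet poor in iodine with 0.02% methimazole, 0.5% perchlorate and 0.3% saccharin in the drinking water. The titles give PBS for these groups, and livers were taken after 6 h. The wider series also holds WT and GS mice given T3, TRβ knockout (KO) mice on the same background with PBS or T3, and a second mutant, Y147F, in 8 groups of 3. Where WT, KO or GS mice were given T3, the dose was 20 µg per 100 g body weight. The Y147F mice were of the C57BL/6JCrl strain, 10 to 11 weeks old, and received 0.05% methimazole and 1% perchlorate. Those given T3 received 200 ng per g. The comparison asks what an altered DNA-binding domain of TRβ changes in a liver with little hormone.

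TRβ is the main thyroid hormone receptor of hepatocytes. It sits at response elements in DNA as a heterodimer with the retinoid X receptor, where it recruits corepressors such as the NCOR and HDAC3 complex in the absence of hormone and coactivators once T3 is bound. In liver its best known targets serve hormone deiodination, lipogenesis, cholesterol and bile acid turnover, and mitochondrial substrate oxidation, and for many of them the receptor without hormone acts as a repressor.

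Values are log2 intensities, differences are GS minus WT ± SE, and each group has 3 arrays. The labels do not state that arrays are separate animals, although each title has its own number. The p-values therefore rest on a spread between samples, estimated over the 18 arrays of WT, KO and GS. The arrays correlated with each other at r = 0.994 to 0.996 within a group and 0.991 to 0.994 between groups, over genes. In a principal component analysis of the 6 arrays, GS arrays scored 10.96 to 12.61 and WT arrays -14.54 to -8.04 on the first component, which held 40.1% of the variance. The second separated replicate 1 of WT (14.27) and of GS (9.69), the only ones of the 6 with a title number over 100000, from the other arrays (-8.55 to -3.62). The number of arrays limits the precision of all values. In whole liver, fewer cells of a type and less RNA per cell cannot be told apart.

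In the GS liver without hormone, 266 genes were higher than in WT, 1.89% of 14069 tested, and 138 were lower, 0.981% (limma, Benjamini-Hochberg adjusted p under 0.05). Of these, 34 and 15 differed by at least 2-fold. The largest rises were in genes of sulfation, organic anion and amino acid transport, urinary protein and lipid handling, led by Sult2a8 and Slc22a7. The largest falls were in Ppp1r3g, Nr4a1, Krt23 and Serpinb1a. The smallest difference called was 0.21. An unadjusted limma p under 0.05 was found for 2135 of the 14069 genes, and counts at that threshold in the lists below stand beside this share. The GS and WT arrays did not overlap for 403 of the 404 called genes and for 20.5% of all genes tested, a property that the selection itself favours. Leaving out any 1 of the 6 arrays gave 156 to 190 higher and 58 to 87 lower genes, with the fewest higher without GS replicate 3 and the fewest lower without GS replicate 1. A fit of the 6 arrays alone gave 139 and 71. With the title number over 100000 as a covariate, 306 genes were higher and 198 lower.

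**Figure D1:**
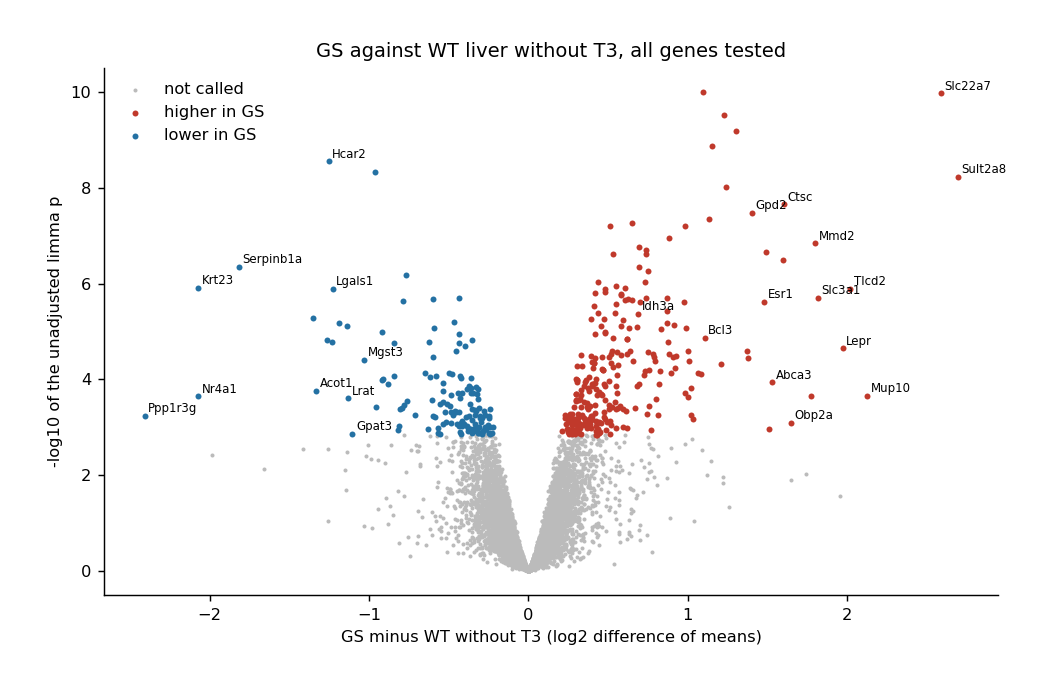
Each point is 1 of the 14069 genes, with the log2 difference of means, GS minus WT without T3, on the horizontal axis and -log10 of the unadjusted limma p on the vertical axis. Red points are the 266 genes higher in GS and blue points the 138 lower ones, and Sult2a8 (2.70) and Ppp1r3g (-2.41) lie farthest out on either side.

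The probe set of Thrb, the gene that carries the mutation, read 6.93, 6.94 and 7.0 in the 3 GS arrays and 6.64, 7.01 and 6.75 in WT. The groups overlapped, with a difference of 0.16 ± 0.13 (limma adjusted p = 0.635). An expression probe set does not read a change of 2 residues, so it does not check the genotype. Thra, the gene of the related receptor TRα, differed by -0.04 ± 0.11 (adjusted p = 0.919). Of the 40 genes nearest to Thrb on its chromosome, 10 had a probe set and were tested. Limma called 0 of them, with 2 at an unadjusted p under 0.05, beside 2135 of the 14069 genes tested. The nearest to a call was the retinoic acid receptor gene Rarb, at -0.68 ± 0.21 (adjusted p = 0.11, unadjusted p = 0.00589). Among 15 receptor partners and coregulators, Rxra, the main retinoid X receptor of hepatocytes, was higher by 0.29 ± 0.07 (limma adjusted p = 0.0375) and Hdac3, the histone deacetylase of the corepressor complex, was lower by 0.22 (adjusted p = 0.0413). The median of the 15 was 0.07, beside -0.01 for all genes tested, of which 1.89% were higher and 0.981% lower. Both calls were lost in most fits without 1 of the 6 arrays, in 6 of 6 for Hdac3 (8 of 15 alternative fits in all, highest adjusted p = 0.155) and in 5 of 6 for Rxra (10 of 15, highest adjusted p = 0.684). Other probe sets of Rxra gave -0.01 and -0.07.

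Hepatocyte markers were present in all arrays, and 0 of the 9 tested were called by limma, with 1 at an unadjusted p under 0.05. Their summed linear intensity was 245188 to 248166 in GS and 239214 to 240777 in WT, so the GS sum was above that of WT in every array. Kupffer cell markers (14 genes), sinusoidal endothelial markers (13), cholangiocyte markers (6), lymphocyte markers (8) and red cell markers (2) had 0 genes called and 0 at an unadjusted p under 0.05. Neutrophil and monocyte markers (9) had 0 called and 2 at an unadjusted p under 0.05. Summed endothelial markers read 9786 to 10059 in GS and 10154 to 10665 in WT, and summed neutrophil and monocyte markers 712 to 785 in GS and 787 to 939 in WT. Summed Kupffer cell markers overlapped, at 13198 to 14165 in GS and 12143 to 13416 in WT. No marker tested lay below the 25th percentile of its array in all 6 arrays, which the filter on low values already favours. Of the markers listed, 2 of 8 for red cells, 8 of 15 for lymphocytes and 6 of 10 for cholangiocytes were tested. The others had no probe set or did not pass that filter. The part of these shifts in the results below was not tested.

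Sult2a8, a sulfotransferase of mouse liver that acts on bile acids, had the largest rise. It read 13.26, 13.21 and 13.13 in the GS arrays and 10.34, 10.82 and 10.35 in WT. All GS arrays lay far above all WT arrays, with little spread in GS. The difference was 2.70 ± 0.24, or 6.48-fold (limma adjusted p = 1.03e-05). Slc22a7, an organic anion transporter of the basolateral hepatocyte membrane, read 10.32, 9.83 and 10.30 in GS and 7.74, 7.41 and 7.52 in WT. Again the 2 groups stood well apart, by 2.59 ± 0.18, or 6.03-fold (adjusted p = 7.5e-07). Lepr, the leptin receptor, read 10.01, 8.89 and 9.31 in GS and 7.97, 7.32 and 7.0 in WT, a difference of 1.97 ± 0.34 (adjusted p = 0.00346). Its arrays spread widely within each group, but the lowest GS array was above the highest WT array. Of its 3 other probe sets, 1 gave 2.00, 1 gave 0.76 and 1, near background, gave -0.05.

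The other large rises covered several functions. Mup10, a major urinary protein, read 7.59, 7.77 and 7.19 in GS and 5.51, 5.14 and 5.53 in WT, and was higher by 2.13 ± 0.45 (limma adjusted p = 0.0153). Major urinary protein genes are close copies, so the probe set may also read others of the family. Slc3a1, the heavy subunit of the transporter of cystine and dibasic amino acids, was higher by 1.82 ± 0.25, and Tlcd2, a membrane protein of phospholipid composition, by 2.02 ± 0.27. Ctsc, the lysosomal dipeptidyl peptidase cathepsin C, read 11.96, 12.05 and 12.03 in GS and 10.34, 10.57 and 10.31 in WT. That was a tight separation in both groups, of 1.61 ± 0.16 (adjusted p = 3.12e-05), or 1.04 with 2 dim probe sets averaged in. Esr1, the estrogen receptor α, read 9.72, 10.26 and 9.56 in GS and 8.68, 8.11 and 8.32 in WT, a difference of 1.48 ± 0.21 (adjusted p = 6.63e-04). Among genes of lipid handling, Lipg, the endothelial lipase, was higher by 1.60 ± 0.19, Abca3, a lipid transporter, by 1.53 ± 0.30 and Apoa4, an apolipoprotein, by 1.51 ± 0.38. Mmd2 (1.80), Rarres1 (1.78), the lipocalin Obp2a (1.65) and the muscle LIM protein gene Csrp3 (1.49) completed the 15 largest rises.

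Some of these calls rested on few arrays. Mup10 missed the threshold without GS replicate 1, without GS replicate 2 or without WT replicate 2 (highest adjusted p = 0.0671), and Rarres1 without GS replicate 1 or 2 (highest 0.147). Rarres1 read 7.63 in WT replicate 1 and 9.48 and 9.76 in the other WT arrays. Obp2a read 5.96, 8.08 and 7.29 in the GS arrays, so its rise came mainly from replicates 2 and 3, and its call was lost in 7 of 15 alternative fits. Apoa4 was lost in 6 of 15, with a highest adjusted p of 0.158.

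**Figure D2:**
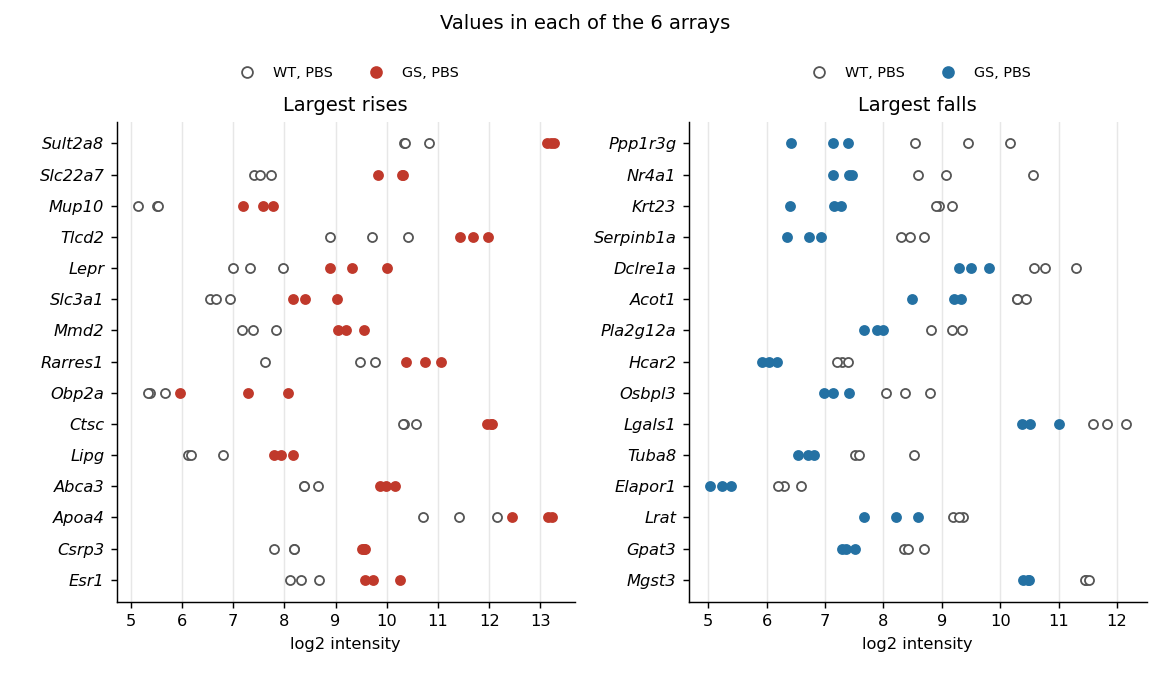
The log2 intensity of each of the 15 genes with the largest rise (left) and the 15 with the largest fall (right) is shown for each of the 3 GS arrays (filled) and 3 WT arrays (open) without T3. The genes were chosen so that the groups do not overlap, and Obp2a, with a GS array at 5.96 beside a WT array at 5.67, comes closest to overlapping.

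Ppp1r3g, a subunit that directs protein phosphatase 1 to glycogen, had the largest fall. It read 7.13, 7.39 and 6.42 in GS and 10.17, 9.45 and 8.54 in WT. The WT arrays spread over more than a log2 unit and the GS arrays lay below all of them, by 2.41 ± 0.56 (difference -2.41, limma adjusted p = 0.0297). Its call was lost in 6 of 15 alternative fits, with a highest adjusted p of 0.125, among them the fits without any 1 of the 3 GS arrays. Nr4a1, an orphan nuclear receptor induced within minutes by many stimuli, read 7.13, 7.41 and 7.47 in GS and 9.08, 10.56 and 8.59 in WT, a difference of -2.07 ± 0.44 (adjusted p = 0.0156). WT replicate 2 stood highest, and without it the difference was -1.50 and not called. Without GS replicate 1 the call was also lost.

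Krt23, a keratin, read 7.27, 6.40 and 7.15 in GS and 9.18, 8.96 and 8.90 in WT, and was lower by 2.07 ± 0.28 (difference -2.07, limma adjusted p = 5.22e-04). Serpinb1a, an inhibitor of neutrophil serine proteases, read 6.92, 6.73 and 6.35 in GS and 8.70, 8.30 and 8.45 in WT, a difference of -1.81 ± 0.22 (adjusted p = 2.51e-04). For both genes the groups were separated by more than a log2 unit. Hcar2, the receptor for niacin and β-hydroxybutyrate, read 5.91, 6.03 and 6.18 in GS and 7.30, 7.20 and 7.39 in WT, a difference of -1.25 ± 0.11 (adjusted p = 6.54e-06). Lgals1, a galectin, differed by -1.23 ± 0.16, with a second probe set at -1.34. Mgst3, a microsomal glutathione transferase, differed by -1.03 ± 0.18, and its GS arrays lay within 10.39 to 10.49 against 11.46 to 11.51 in WT. The DNA cross-link repair nuclease gene Dclre1a (-1.35), the secreted phospholipase Pla2g12a (-1.27), the oxysterol-binding protein gene Osbpl3 (-1.23), Tuba8 (-1.19), Elapor1 (-1.14) and Gpat3 (-1.10) were also among the 15 largest falls. The call of Gpat3 was lost in 9 of 15 alternative fits, including every fit without 1 of the 6 arrays (highest adjusted p = 0.15), and that of Tuba8 in the fit of the 6 arrays alone. Other probe sets of Dclre1a gave -0.17 and -0.25, and with the dim second probe set of Mgst3 averaged in, its difference was -0.66.

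Of 19 known hepatic T3 targets, 18 were tested, 3 of these were higher in GS without hormone and 0 lower. Over all genes tested, 1.89% were higher and 0.981% lower. The difference was positive for 17 of the 18, with a median of 0.45 beside -0.01 for all genes tested. Gpd2, the mitochondrial glycerol-3-phosphate dehydrogenase, read 10.23, 9.67 and 9.87 in GS and 8.37, 8.41 and 8.78 in WT, and was higher by 1.41 ± 0.14 (limma adjusted p = 4.3e-05). Bcl3, an atypical IκB protein that acts on NF-κB, read 8.25, 8.28 and 8.84 in GS and 6.91, 7.61 and 7.52 in WT, a difference of 1.11 ± 0.18 (adjusted p = 0.00245). Idh3a, a subunit of the isocitrate dehydrogenase of the citric acid cycle, read 10.06, 10.01 and 10.09 in GS and 9.12, 9.38 and 9.59 in WT, a difference of 0.69 ± 0.10 (adjusted p = 0.00105). For all 3 genes every GS array was above every WT array, and limma called Bcl3 in every alternative except the fit of the 6 arrays alone (adjusted p = 0.0519).

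The remaining targets did not pass. Dio1, the type 1 deiodinase, read 6.13, 6.16 and 5.03 in GS and 5.06, 4.49 and 4.50 in WT, with 2 of the WT arrays below the 25th percentile of their array. The groups overlapped slightly, with a difference of 1.09 ± 0.31 (limma adjusted p = 0.0757). Me1, the lipogenic malic enzyme, differed by 0.82 ± 0.24 (adjusted p = 0.0887) and Klf9, a transcription factor, by 0.35 ± 0.11 (adjusted p = 0.111), both with groups that did not overlap. Thrsp, which encodes the lipogenic Spot 14 protein, differed by 0.66 ± 0.26, and Cyp7a1, the cholesterol hydroxylase that opens bile acid synthesis, by 0.70 ± 0.42. Hr was the only target below 0, at -0.04 ± 0.07. In KO, which is compared with the same WT arrays, the median of the 18 targets was 0.53.

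**Figure D3:**
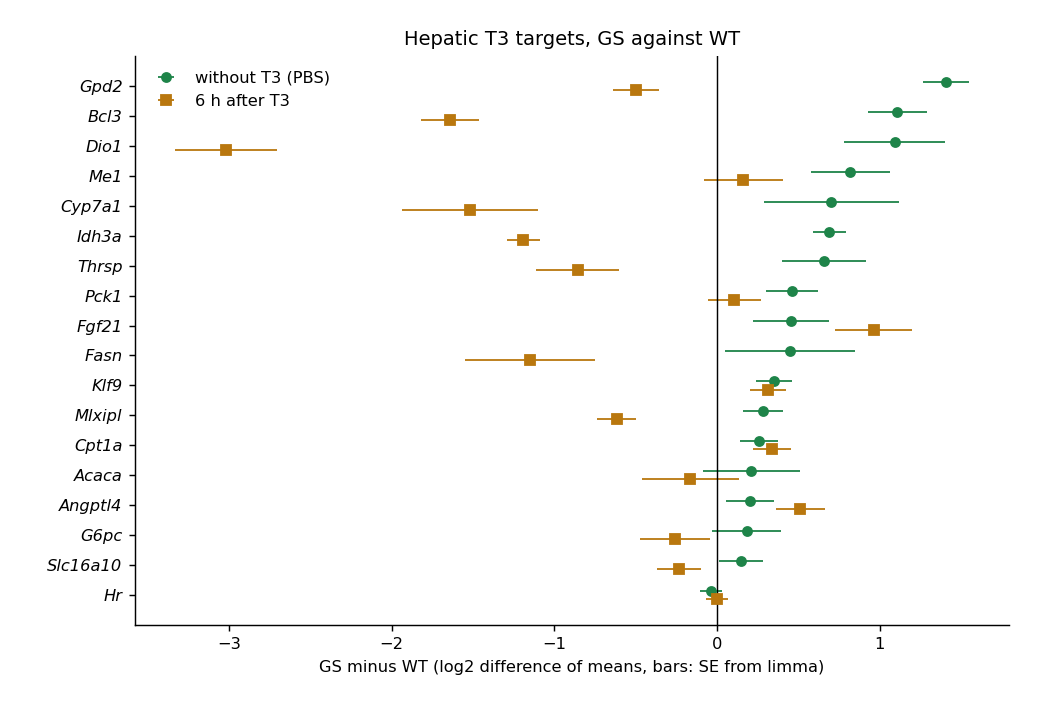
The difference GS minus WT, with its SE, is plotted for the 18 hepatic T3 targets without T3 (circles) and 6 h after T3 (squares, other mice). Without T3 all but Hr lie above 0, and after T3 Dio1 (-3.02), Bcl3 (-1.64) and Idh3a (-1.19) lie far below 0.

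The genes that respond to T3 were also taken from the Y147F arrays, T3 against PBS, none of which is in the comparison. That fit used all 24 arrays, so the compared arrays entered its filter on low values and its estimate of spread. The 2 sets of calls are thus not from wholly separate data. All Y147F arrays with PBS have a title number over 100000, but of those with T3 only replicate 3 has. The part of this in the T3 calls was not tested. T3 raised 776 of the tested genes in Y147F, of which 146 (18.8%) were higher in GS without hormone and 2 were lower. Their median difference was 0.16, and the 146 became 95 to 111 without 1 of the 6 arrays, fewest without GS replicate 1 or 3. Of 108 genes raised at least 2-fold, 55 (50.9%) were higher and 0 lower, with a median of 0.54. T3 lowered 861 genes in Y147F, of which 47 (5.46%) were lower in GS and 3 higher, with a median of -0.08. Of the 52 lowered at least 2-fold, 4 (7.69%) were lower and 0 higher. Among the 12432 genes without a T3 call in Y147F, 117 (0.941%) were higher and 89 (0.716%) lower. Seen from the other side, genes raised by T3 in Y147F made up 54.9% of the genes higher in GS, and genes lowered by T3 made up 34.1% of the genes lower in GS. Sult2a8, Lepr, Ctsc and Slco1a1 differed by 0.72, 0.36, 0.05 and 0.50 between T3 and PBS in Y147F, beside 2.94 for Slc22a7 and 3.24 for Bcl3.

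**Figure D4:**
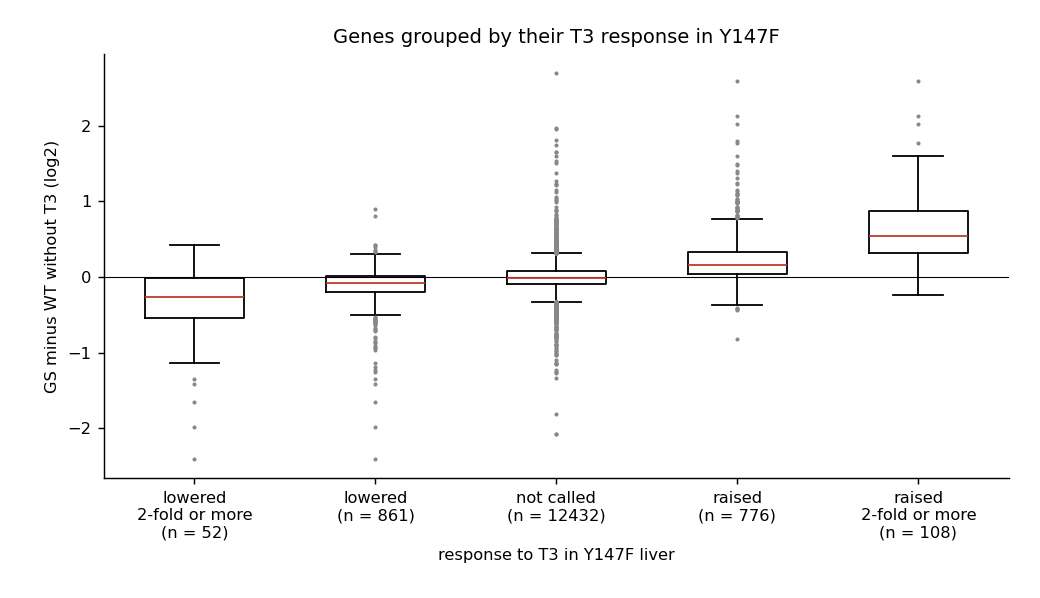
The log2 difference GS minus WT without T3 is shown for genes grouped by their response to T3 in Y147F liver, with the 2-fold groups contained in the wider ones. Boxes span the quartiles with the median in red, whiskers reach 1.5 times the box height and points are genes beyond them. The median moves from -0.26 in genes lowered at least 2-fold to 0.54 in genes raised at least 2-fold.

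The counts of this list and of those that follow stand beside 1.89% higher and 0.981% lower of all genes tested. Genes of mitochondrial substrate oxidation included 5 higher and 1 lower of 20 tested (median 0.10). Besides Gpd2 and Idh3a these were Pdp2, Slc25a45 and Coq10a. Pdp2, the phosphatase that activates pyruvate dehydrogenase, read 8.58, 8.67 and 8.59 in GS and 7.51, 7.48 and 7.54 in WT. The arrays of each group almost coincided, and the difference was 1.10 ± 0.08 (limma adjusted p = 7.5e-07). Slc25a45, a mitochondrial carrier, differed by 1.15 ± 0.09 (adjusted p = 3.77e-06) and Coq10a, a coenzyme Q-binding protein, by 0.61 ± 0.08 (adjusted p = 5.22e-04). Averaging the probe sets of Coq10a, of which the other 3 are near background, gave 0.18 and no call. Idh2, the mitochondrial isocitrate dehydrogenase that uses NADP, was the lower gene, at -0.60 ± 0.11, or -0.28 with its probe sets averaged. Of 29 oxidative phosphorylation subunits limma called 0, with 4 at an unadjusted p under 0.05 and a median of 0.03. Acadm, the medium-chain acyl-CoA dehydrogenase, was the only call among 21 genes of fatty acid oxidation and ketogenesis, at -0.34 ± 0.08, and its call was lost in 7 of 15 alternative fits, including every fit without 1 of the 6 arrays (highest adjusted p = 0.0987).

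Acyl-CoA thioesterases and CoA hydrolases moved in both directions, with 2 higher and 3 lower of 15 tested and a median of -0.14. Over all genes tested, 1.89% were higher and 0.981% lower. Acot1, the cytosolic long-chain thioesterase, read 9.33, 8.49 and 9.21 in GS and 10.29, 10.44 and 10.29 in WT, a difference of -1.33 ± 0.27 (limma adjusted p = 0.0133). Acot2, its mitochondrial neighbour, differed by -0.92 ± 0.15 (adjusted p = 0.0019), and a second probe set gave -1.10. The 2 genes are close paralogs, so their probe sets may read each other's transcript. Nudt19, a peroxisomal CoA hydrolase, was lower by 0.44, while Nudt7, another peroxisomal CoA hydrolase, was higher by 1.04 ± 0.25 and Acot12, the cytosolic acetyl-CoA thioesterase, by 0.37 ± 0.08. The calls of Acot1 without GS replicate 2 or WT replicate 2, of Nudt7 in 4 and of Acot12 in 3 of the 6 fits without 1 array, were lost.

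Bile acid and sterol genes included 5 higher and 0 lower of 19 tested, with a median of 0.20. Cyp27a1, the mitochondrial sterol hydroxylase of bile acid synthesis, read 13.04, 12.88 and 12.98 in GS and 12.23, 12.32 and 12.41 in WT, a difference of 0.65 ± 0.07 (limma adjusted p = 6.02e-05). Scarb1, the HDL receptor, was higher by 0.56 ± 0.11, and its 2 other probe sets gave 0.54 and 0.52. Of the canalicular transporters, Abcb4, which exports phospholipid, was higher by 0.56 ± 0.13 and Abcb11, which exports bile salts, by 0.51 ± 0.10. Slc10a1, the bile salt uptake transporter of the opposite membrane, was higher by 0.29 ± 0.07. The call of Abcb4 was lost in 4 of the 6 fits without 1 array and that of Slc10a1 in all 6. The mean of Cyp27a1 and a dim second probe set gave 0.38. In cholesterol synthesis and uptake, 16 of 17 genes lay above 0 with a median of 0.55, but only Sc5d passed, at 0.62 ± 0.16, and its call was lost in 7 of 15 alternative fits. Sqle, the squalene epoxidase, read 1.22 higher without passing (adjusted p = 0.17). Of 19 genes of fatty acid synthesis 16 lay above 0, with a median of 0.24, but limma called 0, with 6 at an unadjusted p under 0.05.

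Hepatic solute carriers included 6 higher and 0 lower of 25 tested, beside 1.89% and 0.981% of all genes tested. Their median was 0.14, in a range of -0.86 to 2.59, and 16 lay above 0. Besides Slc22a7, Slc3a1 and Slc25a45 the higher genes were Slc13a3, a dicarboxylate transporter (1.08 ± 0.21), Slc23a1, an ascorbate transporter (0.82 ± 0.16), and Slc6a12, a betaine and GABA transporter (0.58 ± 0.08). Their groups did not overlap, and Slc6a12 was the tightest, at 9.65, 9.69 and 9.53 in GS and 9.08, 8.99 and 9.07 in WT (limma adjusted p = 6.37e-04). The call of Slc23a1 was lost without GS replicate 2 or WT replicate 2, and the mean of the probe sets of Slc13a3 gave 0.50. Some genes stand in more than 1 list, such as Slc25a45 among the mitochondrial genes too.

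Growth hormone sets a male or a female pattern in many liver genes, and the mice here were all males. Of 14 male-biased genes 4 were higher and 0 lower, with a median of 0.60, and of 11 female-biased genes 0 were higher and 1 lower, with a median of 0.04. Besides Mup10 and Nudt7, Slco1a1, an organic anion and thyroid hormone transporter, was higher by 1.21 ± 0.22 (limma adjusted p = 0.00564). It read 12.28, 11.64 and 12.07 in GS and 11.04, 10.84 and 10.46 in WT, with no overlap, and a second probe set gave 1.24. Its call was lost in the fit of all 24 arrays (adjusted p = 0.11). Cyp2u1, a fatty acid hydroxylase, was higher by 0.69 ± 0.14, a call lost without GS replicate 1 or WT replicate 3 and with its probe sets averaged (0.40). The only female-biased gene called was Fmo2, a flavin monooxygenase, at -0.63 ± 0.16, lost in 8 of 15 alternative fits. The 11 female-biased genes ran from -0.94 to 1.65. For 3 of them all GS arrays lay above all WT arrays, and for 3 below, beside 1464 and 1417 of the 14069 genes tested. Cyp17a1 (1.65), Abcd2 (1.23) and Cyp39a1 (1.15) lay above without being called, each by more than Fmo2 fell. Both STAT5 genes, whose products carry the growth hormone signal, were higher. Stat5b read 9.12, 9.17 and 9.17 in GS and 8.72, 8.80 and 8.70 in WT, a small but tight difference of 0.41 ± 0.06 (adjusted p = 8e-04), and Stat5a was higher by 0.52 ± 0.09 (adjusted p = 0.00415), or 0.46 and not called with its probe sets averaged. No other of the 15 genes of growth hormone and IGF signalling passed, and Igf1 differed by 0.30 (adjusted p = 0.16).

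Of 24 cytochrome P450 and xenosensor genes, 4 were higher and 2 lower. Cyp2c70, which makes muricholic acids in mice, was higher by 0.78 ± 0.14 (limma adjusted p = 0.00415), Cyp2f2, a periportal enzyme, by 0.73 ± 0.10 (adjusted p = 4.54e-04), Cyp3a25 by 0.31 and Cyp2d10 by 0.21. Nr1i3, the constitutive androstane receptor, was lower, at 10.82, 11.12 and 11.01 in GS and 11.58, 11.72 and 11.44 in WT, a difference of -0.60 ± 0.14 (adjusted p = 0.0302). Cyp2c55 differed by -0.51 ± 0.12. Without 1 of the 6 arrays, the calls of Cyp3a25 and Cyp2d10 were lost in all 6 fits, that of Cyp2c55 in 5 and that of Nr1i3 in 4. Among 33 conjugation and related enzymes Sult5a1 was higher by 1.01 ± 0.18 and Gstt2 lower by 0.55, the latter lost in 5 of these 6 fits (highest adjusted p = 0.082). By zone, 2 of 14 periportal genes, Cyp2f2 and Ctsc, were higher, beside 1.89% of all genes tested, with a median of 0.08. Of 16 pericentral genes 1 was lower, the ornithine aminotransferase Oat at -0.45 ± 0.10, beside 0.981% of all genes tested. The pericentral median was -0.002, and 8 of the 16 lay above 0. The call of Oat was lost in 5 of the 6 fits without 1 array (highest adjusted p = 0.0913).

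Of 16 immediate early genes 3 were lower in GS and 0 higher, and 3 lay above 0, with a median of -0.22. Besides Nr4a1 these were Btg2, an antiproliferative gene (-0.71 ± 0.17, limma adjusted p = 0.0295), and Atf3, a stress-induced transcription factor (-0.57 ± 0.14, adjusted p = 0.042). Atf3 read 5.59, 6.12 and 5.93 in GS and 6.39, 6.47 and 6.48 in WT. The groups did not overlap for any of the 3, but each lost its call without GS replicate 1 and in further fits without 1 array. In KO, against the same WT arrays, Nr4a1 differed by -1.22, Btg2 by -0.39 and Atf3 by -0.20, and the median of the 16 was 0.09. The metallothioneins Mt1 (-1.66, adjusted p = 0.13) and Mt2 (-1.98, adjusted p = 0.086) had wide differences that did not pass. Mt2 read 9.22, 11.64 and 10.59 in GS and 12.47, 13.03 and 11.90 in WT, a range in GS as wide as the difference.

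Retinoid genes included 2 higher and 1 lower of 17. Lrat, which esterifies retinol for storage and marks hepatic stellate cells, read 7.66, 8.59 and 8.21 in GS and 9.19, 9.37 and 9.30 in WT, a difference of -1.13 ± 0.24 (limma adjusted p = 0.017). GS replicate 1 was lowest, and the call was lost in 4 of the fits without 1 array, those without GS replicate 1 or 3 and without WT replicate 2 or 3 (highest adjusted p = 0.0841). Lrat was the only call among 15 stellate cell and fibroblast markers, of which 2 lay above 0 with a median of -0.12. Their summed intensity overlapped, at 13198 to 14674 in GS and 14314 to 16640 in WT, and their part in the lower Lrat was not tested. The retinol transporter gene Stra6l was higher by 0.35 ± 0.08, but its call was lost in 7 of 15 alternative fits, including every fit without 1 of the 6 arrays (highest adjusted p = 0.11).

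Plasma protein genes shifted by little. Of 29 coagulation and complement factors 4 were higher and 0 lower, and 24 lay above 0 with a median of 0.15. C8g, a chain of complement component 8, read 13.51, 13.59 and 13.58 in GS and 13.15, 13.13 and 13.21 in WT, a difference of 0.40 ± 0.06 (limma adjusted p = 0.0013). F12 (0.40), Masp1 (0.38) and Mbl2 (0.35) were the other calls. Other probe sets of Masp1 gave values from -0.12 to 0.08, and the mean of its probe sets gave 0.03. The call of Mbl2 was lost without WT replicate 2. Summed hepatocyte markers were also higher in every GS array, as given above, and their part was not tested. Of 25 acute phase genes limma called 0, with 6 at an unadjusted p under 0.05.

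Single members passed in other lists. Bmf, a proapoptotic BH3 protein under FOXO control, read 8.67, 8.91 and 8.53 in GS and 7.46, 7.54 and 7.0 in WT, a difference of 1.37 ± 0.24 (limma adjusted p = 0.00381). Its 2 other probe sets, both dimmer, gave 0.25 and 0.13, and the mean of the 3 gave 0.59, still called. Rrm2, the small subunit of ribonucleotide reductase, was higher by 0.99 ± 0.21, the only call among 19 genes of DNA replication and cell cycle, and its call was lost without GS replicate 2 or WT replicate 1. Pygl, the liver glycogen phosphorylase, was higher by 0.47 ± 0.09 and Ldha, a lactate dehydrogenase subunit, by 0.31 ± 0.08, of 23 genes of glucose and glycogen metabolism with a median of 0.02. The call of Ldha was lost in 8 of 15 alternative fits, including every fit without 1 of the 6 arrays (highest adjusted p = 0.159), and that of Pygl in the fit of the 6 arrays alone. Psmb8, an immunoproteasome subunit, was higher by 0.48 ± 0.10, of 20 interferon-stimulated genes, and its call was lost without GS replicate 2 or WT replicate 2. Nfkbib, an IκB protein, was called at 0.25 but lost in 11 of 15 alternative fits. Limma called 0 of 17 circadian clock genes (2 at an unadjusted p under 0.05), 0 of 13 Kruppel-like factors (3), 0 of 11 antigen presentation genes (3), 0 of 19 sphingolipid genes (2) and 0 of 8 metallothionein and zinc genes (3). Over all genes tested, 2135 of 14069 had an unadjusted p under 0.05.

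The same genotypes were also compared 6 h after T3, in other mice. There 3.21% of the tested genes were higher in GS and 2.48% lower. Of the 266 genes higher in GS without T3, 43 were also higher with T3 and 48 were lower (30 to 34 without 1 of the 6 arrays, fewest without GS replicate 3), and the median difference went from 0.48 to 0.06. Of the 138 lower genes, 18 were also lower with T3 and 3 were higher, and the median went from -0.44 to -0.12. The difference with T3 less the difference without it was called for 112 of the 266 and 31 of the 138 genes, against 2.85% of all genes tested. These tests reuse the arrays that chose the genes, so a shift toward 0 is in part built into them.

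Genes that stayed apart in the same direction with T3 included several of the largest. Sult2a8 differed by 2.70 without and 2.07 ± 0.24 with T3 (limma adjusted p = 9.19e-05), Lepr by 1.97 and 1.58 ± 0.34 (0.0108), Slco1a1 by 1.21 and 1.39 ± 0.22 (0.00125) and Ctsc by 1.61 and 0.91 ± 0.16 (0.00275). On the lower side were Serpinb1a at -1.81 and -1.64 ± 0.22 (limma adjusted p = 3.61e-04), Krt23 at -2.07 and -1.13 ± 0.28 (0.0234), Lgals1 at -1.23 and -1.13 ± 0.16 (6.3e-04) and Mgst3 at -1.03 and -0.94 ± 0.18 (0.00603). These are genes whose level differed between the genotypes in both states of the hormone.

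Other genes changed sides. Frmd8, which encodes a FERM domain protein, differed by 0.90 without T3 and by -2.14 ± 0.17 with it (limma adjusted p = 2.3e-06). Its GS arrays read 9.05, 9.07 and 9.03 without T3 and 9.26, 9.32 and 9.10 with it, while its WT arrays read 7.94, 8.22 and 8.30 without and 11.18, 11.49 and 11.42 with it. So the GS level lay between the 2 levels of WT. Bcl3 (1.11 and -1.64), Idh3a (0.69 and -1.19), Bmf (1.37 and -1.17), Slc25a45 (1.15 and -0.93) and Stat5a (0.52 and -0.92) had the same order. Slc22a7, with 2.59 without T3, differed by -0.10 ± 0.18 with it (adjusted p = 0.803). Frmd8 was picked for its values and the others by the naming rule, and the call of Frmd8 without T3 was kept in 15 of 15 alternative fits.

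**Figure D5:**
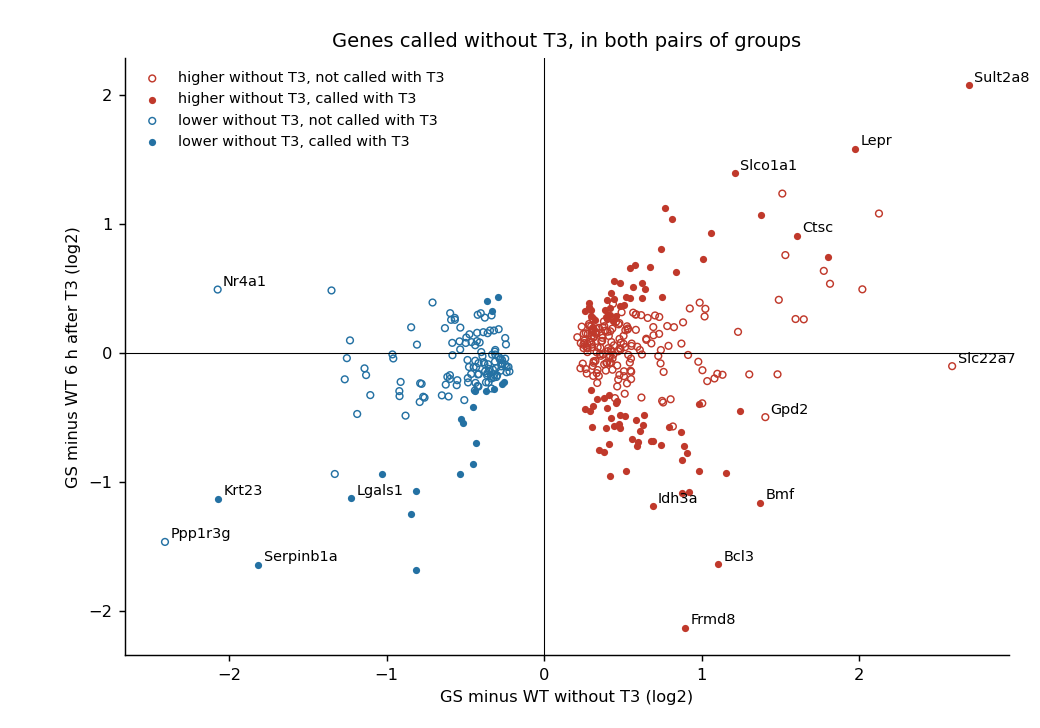
For the 404 genes called without T3, the log2 difference GS minus WT without T3 (horizontal) is set against that 6 h after T3 (vertical), and filled points were also called with T3. Sult2a8, Lepr and Slco1a1 lie at the upper right, Serpinb1a and Krt23 at the lower left, and Bcl3, Frmd8 and Bmf at the lower right.

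The promoters of 6 genes from these groups are printed because each holds a hexamer of the thyroid hormone response element, in capitals. The windows run from 250 bases before to 50 after a gene start in RefSeq (GRCm38.p6), on the strand of the gene. The motif searched was AGGTCA or, on the other strand, TGACCT. Sult2a8 (chr7:14438502-14438801, minus strand) and Slco1a1 (chr6:141946913-141947212, minus strand) were higher in GS with and without T3 and hold 2 hexamers each. Slc25a45 (chr19:5877572-5877871, plus strand), Bmf (chr2:118549637-118549936, minus strand), Stat5a (chr11:100860234-100860533, plus strand) and Stat5b (chr11:100822521-100822820, minus strand) were higher without T3 and lower with it, and hold 1 in each window printed. RefSeq gives some of these genes further windows, at other starts. The second window of Stat5a (chr11:100859406-100859705, plus strand) also holds 1 hexamer, while the second windows of Sult2a8 and Stat5b and the 2 others of Bmf hold none.
Sult2a8: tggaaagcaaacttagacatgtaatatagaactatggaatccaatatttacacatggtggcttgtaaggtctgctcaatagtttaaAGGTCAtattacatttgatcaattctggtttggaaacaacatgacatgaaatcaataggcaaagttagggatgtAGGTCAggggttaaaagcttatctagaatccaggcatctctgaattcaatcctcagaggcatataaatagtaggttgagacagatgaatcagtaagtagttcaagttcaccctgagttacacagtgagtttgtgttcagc
Slco1a1: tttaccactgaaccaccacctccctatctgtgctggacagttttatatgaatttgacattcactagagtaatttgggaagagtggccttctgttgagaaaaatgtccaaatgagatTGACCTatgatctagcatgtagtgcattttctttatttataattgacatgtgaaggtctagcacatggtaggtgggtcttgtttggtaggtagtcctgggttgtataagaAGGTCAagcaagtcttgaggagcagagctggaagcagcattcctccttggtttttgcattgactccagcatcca
Slc25a45: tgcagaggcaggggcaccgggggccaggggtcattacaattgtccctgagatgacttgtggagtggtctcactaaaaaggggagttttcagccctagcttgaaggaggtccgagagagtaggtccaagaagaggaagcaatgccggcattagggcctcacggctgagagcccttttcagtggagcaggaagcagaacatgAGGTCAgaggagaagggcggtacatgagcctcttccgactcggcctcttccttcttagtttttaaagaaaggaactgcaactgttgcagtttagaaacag
Bmf: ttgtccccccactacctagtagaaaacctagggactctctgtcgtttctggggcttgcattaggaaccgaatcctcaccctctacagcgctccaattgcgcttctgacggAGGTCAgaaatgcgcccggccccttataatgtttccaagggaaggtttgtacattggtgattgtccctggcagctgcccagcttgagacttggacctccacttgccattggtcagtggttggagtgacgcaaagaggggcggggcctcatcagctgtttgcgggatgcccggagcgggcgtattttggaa
Stat5a: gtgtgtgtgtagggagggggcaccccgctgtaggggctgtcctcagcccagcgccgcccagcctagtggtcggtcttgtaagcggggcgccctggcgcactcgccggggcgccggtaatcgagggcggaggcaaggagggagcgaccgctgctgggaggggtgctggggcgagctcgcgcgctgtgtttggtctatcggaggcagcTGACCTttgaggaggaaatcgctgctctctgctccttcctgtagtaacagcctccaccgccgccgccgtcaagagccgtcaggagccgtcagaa
Stat5b: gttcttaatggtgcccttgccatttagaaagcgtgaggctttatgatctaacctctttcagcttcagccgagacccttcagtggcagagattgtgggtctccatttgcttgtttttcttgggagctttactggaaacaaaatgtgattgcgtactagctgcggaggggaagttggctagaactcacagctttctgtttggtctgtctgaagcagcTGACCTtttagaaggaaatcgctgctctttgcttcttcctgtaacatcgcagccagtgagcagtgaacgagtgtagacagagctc

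Such a hexamer is common. Windows were at hand for 11305 of the 14069 genes tested, and 13.5% of their 14372 windows held it. The share was 17.8% of the 326 windows of genes higher in GS, 18.2% of the 143 windows of genes lower in GS, and 18.3% of the 186 windows of genes both higher in GS and raised by T3 in Y147F. A direct repeat, AGGTCA followed after 4 bases by AGGTCA, on either strand, was found in 2 of the 14372 windows and in 0 of those of called genes. A match is only a run of letters, and sites outside these windows were not searched.

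The GS liver was also set beside KO liver without hormone. Limma called 6 of the 14069 genes between them, 0.0426%, with 1285 at an unadjusted p under 0.05, and 0 of the 404 genes described above, 72 of which had an unadjusted p under 0.05. KO itself had 3.72% of genes higher and 2.96% lower than WT. Both comparisons use the same WT arrays, and GS against KO uses the same GS arrays, so values are only placed side by side. Sult2a8 differed from WT by 2.70 in GS and 2.78 in KO, Slc22a7 by 2.59 and 2.44, Pdp2 by 1.10 and 1.11, Serpinb1a by -1.81 and -2.10 and Cyp27a1 by 0.65 and 0.65. The genes called between the mutants were Ttc39a (-1.31 ± 0.19, GS minus KO), Hspb1 (-1.01 ± 0.11), Nkiras1 (-0.81 ± 0.09), Ugt2b37 (-0.55 ± 0.09), Gamt (0.37 ± 0.06) and Sult1a1 (0.78 ± 0.11). They were named because the count is small, after their values were seen. Hspb1 and Nkiras1 were called in all of 14 alternative fits, while the calls of Gamt, Ttc39a and Sult1a1 were lost in 2 or 3 and that of Ugt2b37 in 6 of 13. With the title number over 100000 as a covariate, only Hspb1 and Nkiras1 were called. All KO arrays without T3 have such a number, against replicate 1 alone in GS and in WT. For Hspb1, a small heat shock protein, GS averaged 10.02, KO 11.03 and WT 10.24, so KO was the group that stood apart. For Sult1a1, a phenol sulfotransferase, the means were 12.94 in GS, 12.16 in KO and 12.82 in WT, with KO again apart. The call of Sult1a1 was lost with that covariate. Nkiras1 lies 8 genes from Thrb on chromosome 14. Its means were 9.21 in GS, 10.02 in KO and 8.99 in WT, so KO stood apart here too. The part of its position near the altered gene was not tested.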

How the data were processed

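Mouse liver RNA was measured in 24 samples, 8 groups of 3, on Affymetrix arrays with 45101 probe sets. The authors summarised the arrays with RMA, per the submitters' processing notes, and the deposited values of 18 arrays are log2 intensities. In the 6 deposited Y147F columns the values had lost their decimal mark, so they stand as a score. The mark was put back where a value from 3 to 16 resulted, and 1241 cells (0.459%) that could have been altered otherwise were set missing. These columns served only to group genes by T3 response and in 1 alternative. For that grouping, limma fitted 8 group means to all 24 arrays, so the compared arrays entered its estimate of spread.

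A probe table named 34958 probe sets by a single gene, 932 by several and 9211 by none. For each of 18194 genes the probe set of highest mean was used, and 14069 genes that reached the 40th percentile of an array in at least 3 arrays were tested. In R 4.3.3, limma 3.58.1 fitted 6 group means to the 18 arrays (12 residual and 4.09 prior degrees of freedom, no covariate), with two-sided tests and Benjamini-Hochberg adjustment over all genes. The other groups add only to the estimate of spread. The steps were tested on simulated data.

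Genes named were the 15 largest rises and falls among called genes with groups that did not overlap, leaving out clones and predicted genes, together with Thrb, Thra, the T3 targets, called neighbours of Thrb and up to 4 genes of smallest p per list. Another 19 called genes, among them Frmd8, Slc13a3, Slc23a1, Idh2, Cyp3a25 and Cyp2d10, are named outside this rule to complete a short count or because their values stood out. The groups compared, the members and the 43 gene lists were chosen with earlier results of these data known. Alternatives are given in the closing section.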

Additional observations from a re-analysis of the deposited data

Results flagged for a closer look

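For 38 genes, all but Mlxipl named in the text, the difference between GS and WT depended on the hormone by a test of the interaction (limma adjusted p under 0.05). The values are the log2 difference with T3 less that without T3. It was negative for Dio1 (-4.11), Frmd8 (-3.03), Bcl3 (-2.75), Slc22a7 (-2.70), Bmf (-2.54), Slc25a45 (-2.09), Gpd2 (-1.90), Rrm2 (-1.90), Idh3a (-1.88), Esr1 (-1.65), Tlcd2 (-1.53), Thrsp (-1.51) and Stat5a (-1.44). It was also negative for Slc23a1 (-1.39), Cyp2u1 (-1.37), Lipg (-1.33), Papss2 (-1.30), Slc13a3 (-1.28), Pdp2 (-1.26), Coq10a (-1.21), Stat5b (-1.12), Slc6a12 (-1.10), Csrp3 (-1.08), Letm1 (-1.07), Mgll (-0.93), Mlxipl (-0.90), Cyp27a1 (-0.55) and Stra6l (-0.53). All of these were higher in GS without T3 except Dio1, Thrsp and Mlxipl, T3 targets that were not called there. It was positive for Nr4a1 (2.56), Dclre1a (1.83), Osbpl3 (1.33), Hcar2 (1.21), Btg2 (1.10), Pparg (1.04), Elapor1 (1.02), Il17rb (0.95), Nr1i3 (0.90) and Atf3 (0.82), which were lower in GS without T3. The arrays without T3 chose most of the genes and enter the interaction too.

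Probe sets without a single gene name entered no comparison above. Of 10143 such probe sets 4026 passed the filter on low values, and limma called 26 higher and 22 lower in GS without T3.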

How the results depend on the processing

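The counts of higher and lower genes were within 1.5 times the main 266 and 138 with all 24 arrays, quantile normalization, probe sets averaged per gene, a variance trend, the title number as a covariate, and a filter on low values that was dropped or raised to the 60th percentile. With array weights 341 were higher and 225 lower. With only the 6 arrays compared, where fewer arrays inform the spread, 139 were higher and 71 lower, and 80 of the genes raised by T3 in Y147F were higher in place of 146. At 2-fold or more, the counts were 34, 15 and 22, with 4 genes higher without and lower with T3 in place of 48. Without 1 of the 6 arrays in turn, 156 to 190 were higher and 58 to 87 lower, 95 to 111 of the T3-raised genes were higher, and 30 to 34 genes changed sides. Genes called between GS and KO, 6 in the main fit, numbered 14 with all 24 arrays, 25 with the mean of probe sets, 17 with the variance trend, 2 with the covariate, 2 at 2-fold or more and 2 to 11 without 1 array in turn, and the cause was not tested. Of the 94 named genes that were called, 75 by the naming rule and 19 outside it, 45 were called under every alternative. Over 116 genes followed through the alternatives, 1482 values kept direction and call, 243 lost the call, 9 gained it and 3 changed sign. The last were Thra and Slc16a10, neither of them called. Without 1 array in turn, Thra ran from -0.12 to 0.038, above 0 without replicate 2 of GS or of WT, and Slc16a10 from -5.4e-04, without WT replicate 1, to 0.30. No paired analysis was possible because the labels give no replicate numbers that the groups share. Signal over background limits Dio1 in WT without T3, where 2 of 3 arrays lay below the 25th percentile.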

Other observations

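The gene groups here were assembled after their values were seen, so their counts are descriptions. Cytosolic ribosomal protein genes lay below 0 in GS without T3 for 44 of 44 tested, with a median of -0.23 and a range of -0.48 to -0.05, and 7 of them were lower by limma (adjusted p under 0.05). Rps19 was lowest, at -0.48, and Rps26 differed by -0.25, with 13.17, 13.18 and 13.14 in GS and 13.41, 13.42 and 13.41 in WT. Without 1 of the 6 arrays, the call of Rps19 was lost in 4 fits and that of Rps26 in 6. The median of the 44 was -0.09 with T3. In KO, against the same WT arrays, it was -0.13. Of 14 small nucleolar RNA host genes, which are spliced noncoding transcripts, 4 were lower, among them Snhg12 (-0.41) and Gas5 (-0.37), and 12 lay below 0 with a median of -0.30. The calls of Snhg12 and Gas5 were lost in 5 of the 6 fits without 1 array. Of 75 mitochondrial ribosomal protein genes 2 were lower, with a median of -0.05.

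Among 27 genes of lipid droplets and triglyceride synthesis, 5 were lower and 1 was higher in GS without T3. Pparg, a nuclear receptor of lipid storage, read 8.35, 7.87 and 8.22 in GS and 8.91, 8.81 and 9.25 in WT, a difference of -0.84 ± 0.14 (limma adjusted p = 0.00274). The droplet coat protein gene Plin4 differed by -0.96, the monoacylglycerol acyltransferase gene Mogat2 by -0.88 and Gpat4, an isoform of the acyltransferase encoded by Gpat3, by -0.61. Mgll, the monoglyceride lipase, was higher by 0.91 ± 0.14 (adjusted p = 0.00157). The median of the 27 was -0.08. Without 1 of the 6 arrays, the call of Plin4 was lost in 4 fits and those of Mogat2 and Gpat4 in 1 each, that of Gpat4 also with its probe sets averaged.

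Letm1, Papss2 and Il17rb, with little spread and very small p, and Hamp2 fall outside the naming rule and were picked after their values were seen. Letm1, a protein of the inner mitochondrial membrane, read 9.62, 9.49 and 9.53 in GS and 8.26, 8.22 and 8.47 in WT, a difference of 1.23 ± 0.09 (limma adjusted p = 1.45e-06), or 0.54 with its probe sets averaged, still called. Papss2, which makes the sulfate donor used by sulfotransferases, was higher by 1.13 ± 0.12 (adjusted p = 5.23e-05). Il17rb, a receptor of interleukin-17 family cytokines, was lower, at -0.96 ± 0.09 (adjusted p = 9.39e-06). Hamp2, a hepcidin gene, differed by -0.81 ± 0.20 without T3 (limma adjusted p = 0.0394) and by -1.07 with it. Its call without T3 was lost in all 6 fits without 1 array and with its probe sets averaged. The second, dim probe set of Hamp2 gave -0.04. Called genes made up from 1.75% of the genes tested on chromosome X to 4.55% on chromosome 19.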
